A study of Mus musculus with 3 samples.

Results

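The described genes were 10 members of the bone morphogenetic protein (BMP) system out of 22535 genes in the count tables. They comprised 6 secreted ligands (Bmp2, Bmp3, Bmp4, Bmp6, Bmp7 and Gdf5), 1 receptor (Bmpr1a) and 3 target genes (Id1, Id2 and Id3). They were chosen by name, and their unique molecular identifiers (UMIs, one per captured RNA molecule) were summed in every cell type and in each library. The libraries were single-cell RNA-seq of mouse kidney cortex from WT1CreERT2; Rosa26-tdT fl/+ mice, in which tamoxifen turns on the red reporter tdT in cells that use the Wt1 locus and in their descendants. All 3 libraries shared this genotype. The Sham library came from sham surgery and was a cell mixture enriched for tdT+ cells. IRI24h-TDN was a comparable mixture of tdT+ and tdT- cells collected 24 h after severe ischemia and reperfusion of both kidneys (IRI), in which blood flow is stopped and then restored. IRI24h-TD held sorted tdT+ cells alone at the same 24 h. Because the tdT label follows Wt1 expression, podocytes made up most of every library, and the sort fixed the proportions of the cell types. Kidneys were pooled, and each condition had 1 library, so no statistical test between conditions was possible and every interval below covers counting error only.

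BMP ligands are secreted dimers that bind a complex of type I and type II serine-threonine kinase receptors. The type I receptor phosphorylates Smad1, Smad5 and Smad9, which join Smad4 and act on target genes. The Id genes are the classic targets of this signal and encode proteins that hold basic helix-loop-helix factors away from DNA, although other signals also act on them. BMP7 is needed for nephron formation in the developing kidney and is known there as a product of podocytes and distal tubule, whereas BMP3 is generally described as a ligand that opposes the others.

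Of 30008 barcodes, 26760 had at least 200 genes and at most 50% mitochondrial UMIs, namely 8047 Sham, 9024 IRI24h-TDN and 9689 IRI24h-TD cells with medians of 7746 to 9529 UMIs per cell. Barcode sequences shared between pairs of libraries numbered 102 to 114. The cells fell into 19 described classes, built without the 10 genes and without other BMP pathway genes. Podocyte-like cells were 17890 and all 10 podocyte markers reached 10 CPM (UMIs of a gene per 1000000 UMIs of the cells) in them. A further 688 cells had podocyte genes together with high Dkk3 and are called Dkk3-led cells. PEC-like cells, with markers of the parietal epithelial cells that line Bowman's capsule, were 1011, made up of 617 Sham, 171 IRI24h-TDN and 223 IRI24h-TD cells. Another 347 cells carried genes of PECs and of the proximal tubule (PT), and PT-like cells were 1057. The remaining 1078 cells were left unnamed. Podocyte RNA was also found outside podocytes. The summed podocyte markers stood at 5.56% of their podocyte-like level in PEC-like cells, 1.798% in PT-like cells and 9.73% in endothelial-like cells, and its part in the values below was not tested.

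The genes lie on 6 mouse chromosomes (GRCm38, GENCODE M21). Bmp2 spans chr2:133552159-133562885 on the forward strand and Bmp7 spans chr2:172868012-172940321 on the reverse strand. Gdf5 (chr2:155941023-155945367) and Id1 (chr2:152736251-152737410) share that chromosome. Bmp3 lies at chr5:98854415-98884396, Bmp6 at chr13:38345107-38500302, Id2 at chr12:25093799-25097140 and Id3 at chr4:136143497-136145755. Bmp4 (chr14:46383520-46390669) and Bmpr1a (chr14:34410734-34503341) are both on chromosome 14. Bmp4, Bmp6, Gdf5 and Bmpr1a overlap annotated genes on the opposite strand, Txndc5 among them for Bmp6. Whether the counting used strand is not given in the sources used here, so the counts of these 4 genes could include reads of their overlapping partners.

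Sequence from the upstream end of a 300-base promoter window is shown for a ligand led by PEC-like cells (Bmp4), the receptor (Bmpr1a) and a target gene (Id2). Smad motifs were searched in these stretches. Each runs to the first annotated exon base, which came after 250 bases for Bmp4. For Bmpr1a and Id2 it came after only 109 and 89 bases, so these stretches need not reach the start site of their window. The searched motifs were GGCGCC, which reads the same on both strands, and GTCT or its reverse complement AGAC, and matches are in capitals. The stretches are from RefSeq (GRCm38.p6), reverse strand, 5′ to 3′, without annotated exon bases, and those of Bmpr1a and Id2 lie in an intron of a longer transcript.
Bmp4, chr14:46390670-46390919: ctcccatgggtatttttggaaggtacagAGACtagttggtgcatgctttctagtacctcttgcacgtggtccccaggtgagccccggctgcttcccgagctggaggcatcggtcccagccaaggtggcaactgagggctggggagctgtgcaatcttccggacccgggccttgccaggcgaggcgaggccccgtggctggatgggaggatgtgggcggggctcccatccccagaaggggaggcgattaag
Bmpr1a, chr14:34502688-34502796: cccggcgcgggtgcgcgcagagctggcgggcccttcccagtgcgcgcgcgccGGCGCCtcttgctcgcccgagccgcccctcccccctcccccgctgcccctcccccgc
Id2, chr12:25096254-25096342: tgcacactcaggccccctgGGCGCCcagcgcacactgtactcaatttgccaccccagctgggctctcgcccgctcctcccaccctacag
The Bmp4 stretch of 250 bases held 1 AGAC and no GGCGCC. Of 32851 mouse promoter stretches of that length and place, 82.9% held GTCT or AGAC, so this match is common. The Bmpr1a stretch of 109 bases and the Id2 stretch of 89 bases each held 1 GGCGCC. That motif was found in 3.41% and 2.73% of all stretches of the same lengths, whatever their base content. The Bmpr1a and Id2 stretches were 84.4% and 67.4% G or C. How common this motif of G and C alone is at such contents was not tested. Neither held GTCT or AGAC. A match is a match of letters and no binding was measured here.

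Bmp7 and Gdf5 were the ligands with their highest levels in the podocyte classes. Bmp7 stood at 415 CPM (95% interval 412 to 418) in podocyte-like cells and 350 CPM (336 to 364) in Dkk3-led cells, and these intervals did not overlap. The next classes were lower by far, with 60.7 CPM in type B intercalated (IC-B)-like cells, 56.5 CPM in PEC-like cells and 55.7 CPM in cells of the connecting tubule and principal cell class (CNT-PC-like). Podocyte-like cells held 94.3% of all Bmp7 UMIs in the described classes. With every cell thinned to 2400 UMIs, 58.8% of podocyte-like cells had a Bmp7 UMI (91.0% without thinning), against 0.794% of macrophage-monocyte-like cells (1.75% without thinning), a class not known to make it. The median depths of these classes were 9219 and 4957 UMIs.

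Gdf5, a BMP-family ligand best known from joint formation, had the largest share of its UMIs in 1 class of the 10 genes. It stood at 34.9 CPM (34.0 to 35.8) in podocyte-like cells and 30.4 CPM (26.4 to 34.8) in Dkk3-led cells, whose intervals overlapped, and at no more than 1.91 CPM in any other class. Podocyte-like cells held 96.3% of its UMIs. It was found in 7.10% of podocyte-like cells after thinning and in 20.7% without thinning.

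Bmp3 and Bmp4 led in PEC-like cells taken as a class, although the clusters of that class differed in these genes. Bmp3 stood at 222 CPM (211 to 232) there, above mesangial-like cells at 132 CPM (97.1 to 176) and fibroblast-like cells at 58.6 CPM (43.6 to 77.1), and PEC-like cells held 76.7% of its UMIs. In podocyte-like cells it was at 0.165 CPM, from 28 UMIs over 17890 cells. Bmp4 stood at 130 CPM (122 to 138) in PEC-like cells, 111 CPM (90.4 to 136) in fibroblast-like cells and 81.6 CPM (54.6 to 117) in mesangial-like cells, and the neighbours in this order overlapped. It was at 72.2 CPM (66.0 to 78.9) in Dkk3-led cells but at 5.48 CPM (5.13 to 5.84) in podocyte-like cells, although both classes had the podocyte markers. The mesangial-like class had 59 cells, and 1 cell gave 29.8% of its Bmp3 UMIs and 44.8% of its Bmp4 UMIs.

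Bmp2 was highest in smooth muscle-like cells at 133 CPM (122 to 146) and mesangial-like cells at 124 CPM (89.9 to 166), which overlapped. PEC-like cells at 52.1 CPM, endothelial-like cells at 51.1 CPM and macrophage-monocyte-like cells at 35.5 CPM followed, and podocyte-like cells were near the bottom at 0.142 CPM. Bmp6, known for its part in iron sensing by the liver, was highest in the class with PEC and PT genes at 76.8 CPM (69.1 to 85.1). PEC-like cells at 64.9 CPM (59.5 to 70.7) overlapped it, and PT-like cells were at 35.7 CPM (32.2 to 39.4). Podocyte-like cells had 0.118 CPM of Bmp6.

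**Figure D1:**
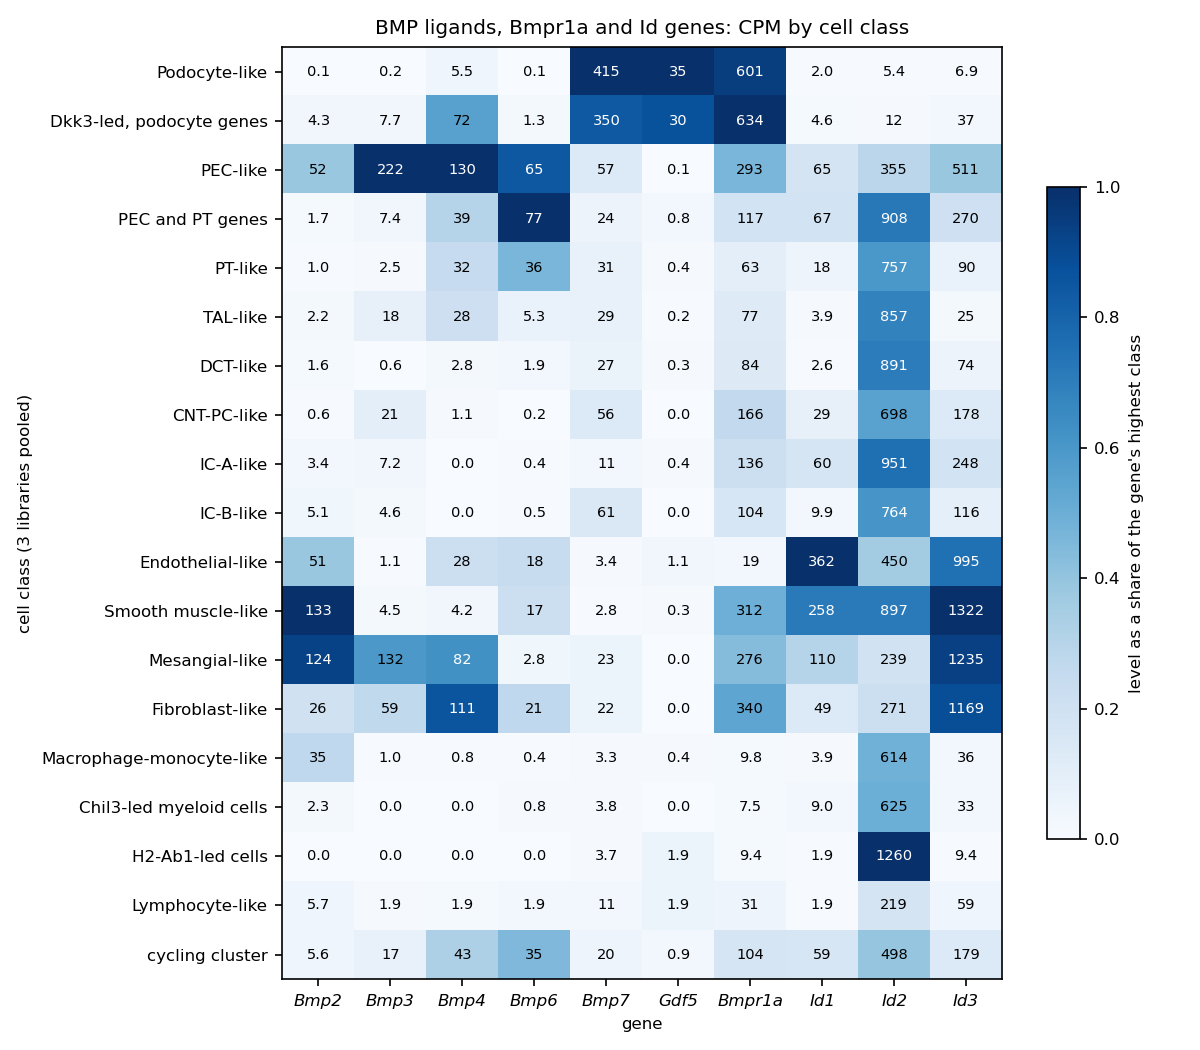
Level of each of the 10 genes (columns) in 19 cell classes (rows) with all libraries together, printed in each cell in CPM, where the colour is the level as a share of that gene's own highest class. Bmp7, Gdf5 and Bmpr1a are darkest in the podocyte-like and Dkk3-led rows, Bmp3 and Bmp4 in the PEC-like row, and Id2 and Id3 are palest in the podocyte-like row, where Id1 is at 2.01 CPM.

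Bmpr1a, a type I receptor, was highest in the podocyte classes and was also found in most others. It stood at 634 CPM (616 to 654) in Dkk3-led cells and 601 CPM (597 to 604) in podocyte-like cells. Fibroblast-like cells followed at 340 CPM, smooth muscle-like cells at 312 CPM and PEC-like cells at 293 CPM (281 to 305), and PT-like cells had 62.7 CPM. Macrophage-monocyte-like cells had 9.80 CPM. Podocyte-like cells held 89.2% of the receptor's UMIs, a share that also reflects how many of the cells they were. After thinning 73.5% of podocyte-like cells had at least 1 Bmpr1a UMI, against 2.15% of macrophage-monocyte-like cells.

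The Id genes were lowest or near lowest in podocyte-like cells. Id1 was highest in endothelial-like cells at 362 CPM (324 to 404) and smooth muscle-like cells at 258 CPM (241 to 275), and was at 64.8 CPM in PEC-like cells and 2.01 CPM (1.8004 to 2.23) in podocyte-like cells. Id2 was found in nearly every class. It was highest in H2-Ab1-led cells, a small class of antigen-presenting genes, at 1260.1 CPM, and stood at 951 CPM in type A intercalated (IC-A)-like cells, 757 CPM in PT-like cells and 355 CPM (343 to 369) in PEC-like cells. In podocyte-like cells Id2 was at 5.40 CPM (5.05 to 5.76), which was 0.428% to 45.8% of its level in the other 18 classes with a median of 0.818%. Id3 was highest in smooth muscle-like cells at 1322 CPM, mesangial-like cells at 1235 CPM, fibroblast-like cells at 1169 CPM and endothelial-like cells at 995 CPM. It stood at 511 CPM (495 to 527) in PEC-like cells, 36.8 CPM (32.4 to 41.7) in Dkk3-led cells and 6.88 CPM (6.49 to 7.29) in podocyte-like cells. Podocyte-like cells, first of the 19 classes in Bmp7 and behind only Dkk3-led cells in Bmpr1a, were thus at rank 17 in Id1 and at rank 19 in Id2 and Id3. For scale, the marker lists of 13 other classes stood in podocyte-like cells at 0.0330% to 10.5% of the level in their own class, with a median of 0.133% over all libraries together. How much of the few Id UMIs in podocyte-like barcodes was free RNA from other cells was not tested.

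The order of the classes was also read within each library, over the 14, 15 and 5 classes with at least 50 cells in Sham, IRI24h-TDN and IRI24h-TD. In all 3 libraries Bmp7 was highest in podocyte-like cells, Bmpr1a in Dkk3-led cells and Bmp3 and Bmp4 in PEC-like cells, and all 3 Id genes were lowest in podocyte-like cells. The leading class of 3 ligands varied. Gdf5 was highest in podocyte-like cells in Sham and IRI24h-TD but in Dkk3-led cells in IRI24h-TDN (50.9 against 40.0 CPM). Bmp6 was highest in PEC-like cells in Sham (73.3 against 71.9 CPM in the class with PEC and PT genes) and in the class with PEC and PT genes in both injured libraries. Bmp2 was highest in smooth muscle-like cells in Sham and IRI24h-TDN, a class with too few cells in IRI24h-TD, where PEC-like cells led at 37.4 CPM.

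In podocyte-like cells, Bmp7 and Gdf5 were higher in both injured libraries than in Sham. Bmp7 stood at 282 CPM in Sham, against 439 CPM in IRI24h-TDN and 460 CPM in IRI24h-TD. The log2 ratio of IRI24h-TDN to Sham was 0.64 (0.61 to 0.68), below the 2-fold mark. Gdf5 stood at 17.3 CPM in Sham, 40.0 CPM in IRI24h-TDN and 39.6 CPM in IRI24h-TD, a log2 ratio of IRI24h-TDN to Sham of 1.21 (1.08 to 1.34). The injured libraries lay close together for both genes. The same order held within 7 finer podocyte clusters. Their Bmp7 levels ranged from 233 to 309 CPM in Sham, against 300.2 to 477 CPM in IRI24h-TDN and 408 to 497 CPM in IRI24h-TD, and Gdf5 ranged from 11.6 to 20.4, 17.5 to 48.7 and 17.1 to 51.4 CPM. In 1 of these podocyte clusters the Gdf5 levels lay close together, with Sham only slightly below IRI24h-TDN at 17.5 CPM and IRI24h-TD at 17.1 CPM.

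Bmpr1a differed little between libraries in podocyte-like cells, at 561 CPM in Sham, 614 CPM in IRI24h-TDN and 611 CPM in IRI24h-TD. Bmp4 was at 5.33, 5.47 and 5.54 CPM in the same order of libraries. Id1 stood at 2.01, 1.78 and 2.14 CPM and Id3 at 8.91, 6.40 and 6.26 CPM, and Id3 was not higher in either injured library. Id2 was at 9.57 CPM in Sham, 5.96 CPM in IRI24h-TDN and 3.22 CPM in IRI24h-TD, and IRI24h-TD is also the library with the fewest cells of most classes where Id2 was high. Markers of other cells in podocyte-like barcodes also differed between libraries. The summed PT markers there were at 330.5 CPM in Sham, against 8.34 and 6.06 CPM in IRI24h-TDN and IRI24h-TD (0.721%, 0.0182% and 0.0132% of their PT-like level), and the lymphocyte markers at 416, 6.24 and 3.46 CPM. Of 13 such lists, 8 were higher in Sham than in IRI24h-TDN and 7 of these were lower still in IRI24h-TD. Their part in the Id2 and Id3 values was not tested. Bmp3 had 22 Sham UMIs, against 0 in IRI24h-TDN and 6 in IRI24h-TD. With the floor set at 3 UMIs per library, it was at least 9.86-fold lower in IRI24h-TDN than in Sham. The Sham level was only 0.598 CPM, against 276 CPM in Sham PEC-like cells. The part of RNA from other cells in these few UMIs was not tested.

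**Figure D2:**
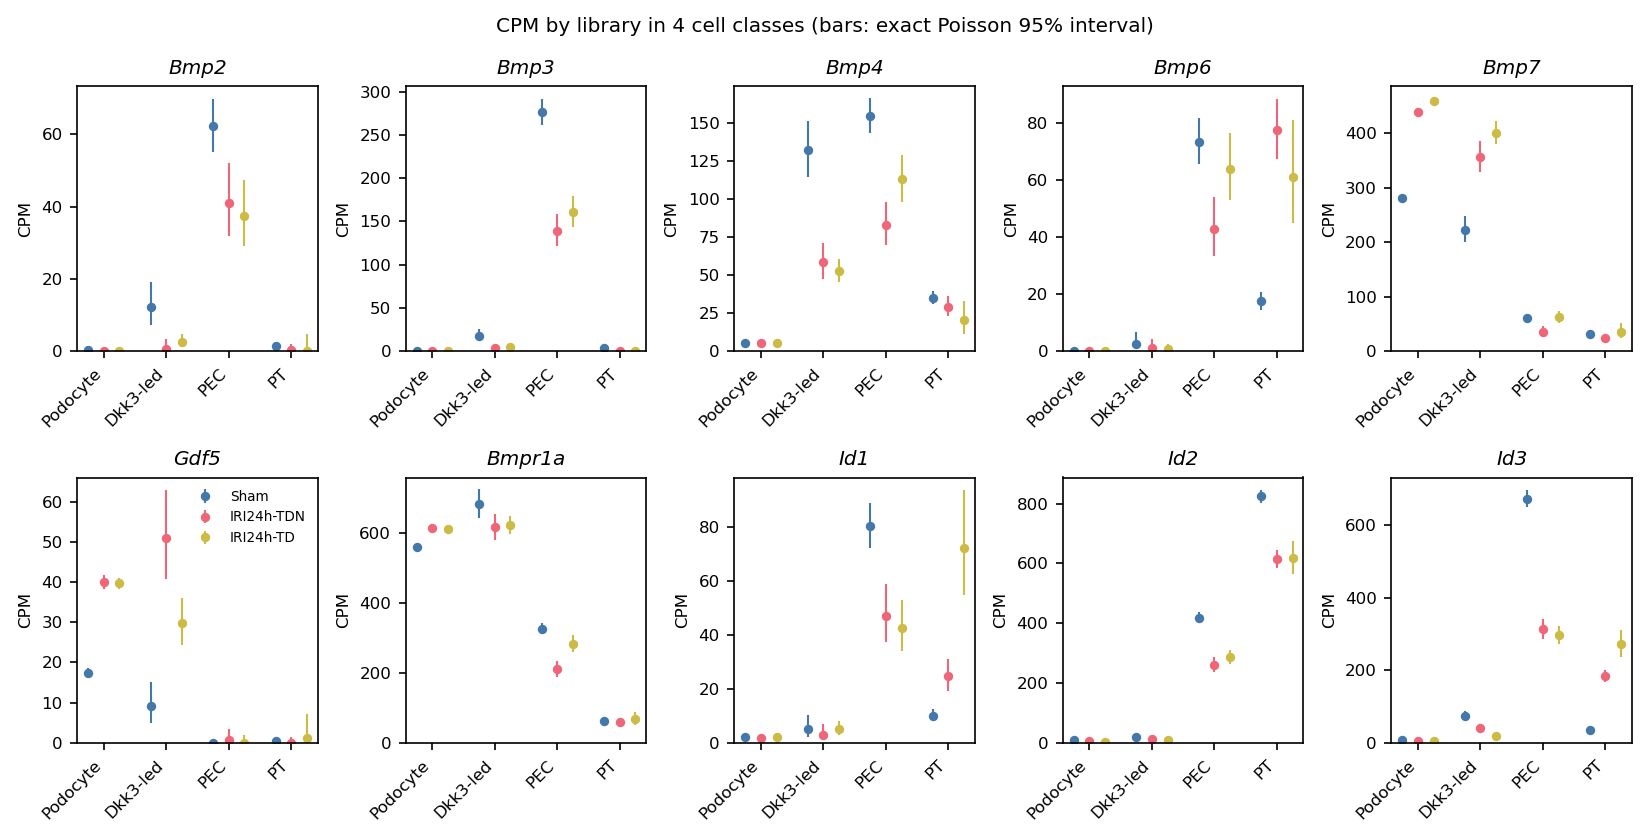
Level in CPM (vertical axes, starting at 0) of the 10 genes in podocyte-like, Dkk3-led, PEC-like and PT-like cells in the Sham, IRI24h-TDN and IRI24h-TD libraries, where bars through the points are 95% Poisson intervals that cover counting error only. Bmp7 in podocyte-like cells lies at 282 CPM in Sham and at 439 and 460 CPM in the injured libraries, and Id3 in PEC-like cells lies at 672 CPM in Sham and at 312 and 296 CPM.

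Counted over all genes, a difference of 2-fold or more between libraries was common, and the members were read against that background. A gene was counted in a class when the 2 libraries together had at least 20 UMIs. In podocyte-like cells, 5.54% of 13321 genes were 2-fold or more higher in IRI24h-TDN than in Sham and 9.5% were lower. Of 8 members counted there, 1 was higher (Gdf5) and 1 was lower (Bmp3, from 22 UMIs in Sham and 0 in IRI24h-TDN). Over all 12 classes with at least 50 cells in both libraries, 81 pairs of member and class were counted. Of these pairs, 7 were higher and 15 lower. By class, 3.81% to 18.7% of all genes were higher and 5.46% to 14.9% were lower. Bmpr1a was past 2-fold in 0 of 11 classes, with log2 ratios from -0.67 to 0.13, and Id2 in 0 of 12, from -0.68 to 0.64.

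Dkk3-led cells showed the podocyte pattern for Bmp7 and Gdf5 together with lower Bmp4, Bmp3 and Bmp2 in IRI24h-TDN than in Sham. Bmp7 stood at 223 CPM in Sham, 356 CPM in IRI24h-TDN and 401 CPM in IRI24h-TD. Gdf5 was at 9.06, 50.9 and 29.9 CPM, a log2 ratio of IRI24h-TDN to Sham of 2.49 (1.67 to 3.42). Bmp4 was at 132, 58.6 and 52.7 CPM, a log2 ratio of -1.17 (-1.53 to -0.82). Bmp3 was at 17.5 CPM in Sham and 3.55 CPM in IRI24h-TDN, from 27 UMIs in 8 cells and 6 UMIs in 2 cells. Bmp2 was at 12.3 and 0.592 CPM, from 19 UMIs against 1. Of 8 members counted, 1 was higher against a background of 3.81% and 3 were lower against 7.6%. The summed podocyte markers in these cells were 64.0% of the podocyte-like level in Sham, against 74.7% in IRI24h-TDN and 77.8% in IRI24h-TD, in the same order as Bmp7, and their part in these values was not tested.

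In PEC-like cells the levels of the 9 members counted were lower in IRI24h-TDN than in Sham in every case, with log2 ratios from -0.60 to -1.10 and a median of -0.77, where the median over all genes was -0.02. These ratios depended on how the cells were filtered and grouped. Bmp6 turned to 0.26 with 1 round of clustering and Id2 to 0.44 without correction between libraries, and Bmp2 (-0.60) ran from -0.01 with at most 20% mt- UMIs to -2.06 without correction. Only Id3 passed 2-fold, and it was under 2-fold in 3 of 13 alternatives (-0.70 at the least). The 13 include changes of the UMI minimum, which could not move this ratio. Id3 stood at 672 CPM in Sham, 312 CPM in IRI24h-TDN and 296 CPM in IRI24h-TD, a log2 ratio of -1.10 (-1.24 to -0.97). The background was 11.8% lower and 7.09% higher, so 1 of 9 past 2-fold was near it. Bmp3 followed at 276, 140 and 161 CPM (log2 ratio -0.98, -1.19 to -0.78) and Bmp4 at 154, 82.8 and 113 CPM (-0.90, -1.17 to -0.63). Bmpr1a was at 326, 211 and 283 CPM, Id1 at 80.3, 47.1 and 42.7 CPM and Id2 at 418, 261 and 286 CPM. Bmp2 was at 62.2, 41.1 and 37.4 CPM. Bmp6 at 73.3, 42.9 and 63.8 CPM and Bmp7 at 61.7, 35.6 and 62.2 CPM were lower in IRI24h-TDN, while in IRI24h-TD their intervals overlapped those of Sham. The summed podocyte markers were at 5.53% of the podocyte-like level in Sham, against 3.07% in IRI24h-TDN and 6.84% in IRI24h-TD, and their part in the Bmp7 and Bmpr1a values was not tested.

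PEC-like cells consisted of 3 clusters that differed in these genes. Cluster 9 had 390 cells, led by Clstn2, Cpe and Lsp1 with only 1 PEC marker among its top 10 genes. Its podocyte markers stood at 13.1% of the podocyte-like level. Dkk3 and Ogn, which are also top genes of the Dkk3-led cells, were among these 10. The score by which cluster 9 was named was 0.829 for the PEC list and 0.696 for the smooth muscle list. Cluster 9 had the highest Bmp4 (220.5 CPM), Bmp2 (85.2 CPM) and Bmpr1a (486 CPM) of the 3. Cluster 10, with 348 cells led by Cdh6, Scin and Cp, had the lowest Bmp3 (72.1 CPM) and Bmp4 (48.4 CPM). This Bmp4 level was below those of fibroblast-like (111 CPM), mesangial-like (81.6 CPM) and Dkk3-led (72.2 CPM) cells. The Bmp4 lead of the PEC-like class thus did not hold in every cluster. Cluster 16, with 273 cells led by Tnc, Cp and Adamts5, had the highest Bmp3 (325 CPM). Sham held 254, 192 and 171 cells of clusters 9, 10 and 16, and IRI24h-TDN held 50, 76 and 45. Id3 was lower in both injured libraries within each cluster, going from 766 to 560 and 445 CPM in cluster 9, from 544 to 185 and 167 CPM in cluster 10 and from 684 to 353 and 316 CPM in cluster 16, with the values in the order Sham, IRI24h-TDN and IRI24h-TD. Bmp3 was likewise lower in both injured libraries within each cluster. By contrast Bmp2 was at 81.0 CPM in Sham and 113 CPM in IRI24h-TDN within cluster 9, and Bmp6 was at 76.0 and 80.9 CPM within cluster 16, so the lower level of these ligands did not hold in every cluster.

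**Figure D3:**
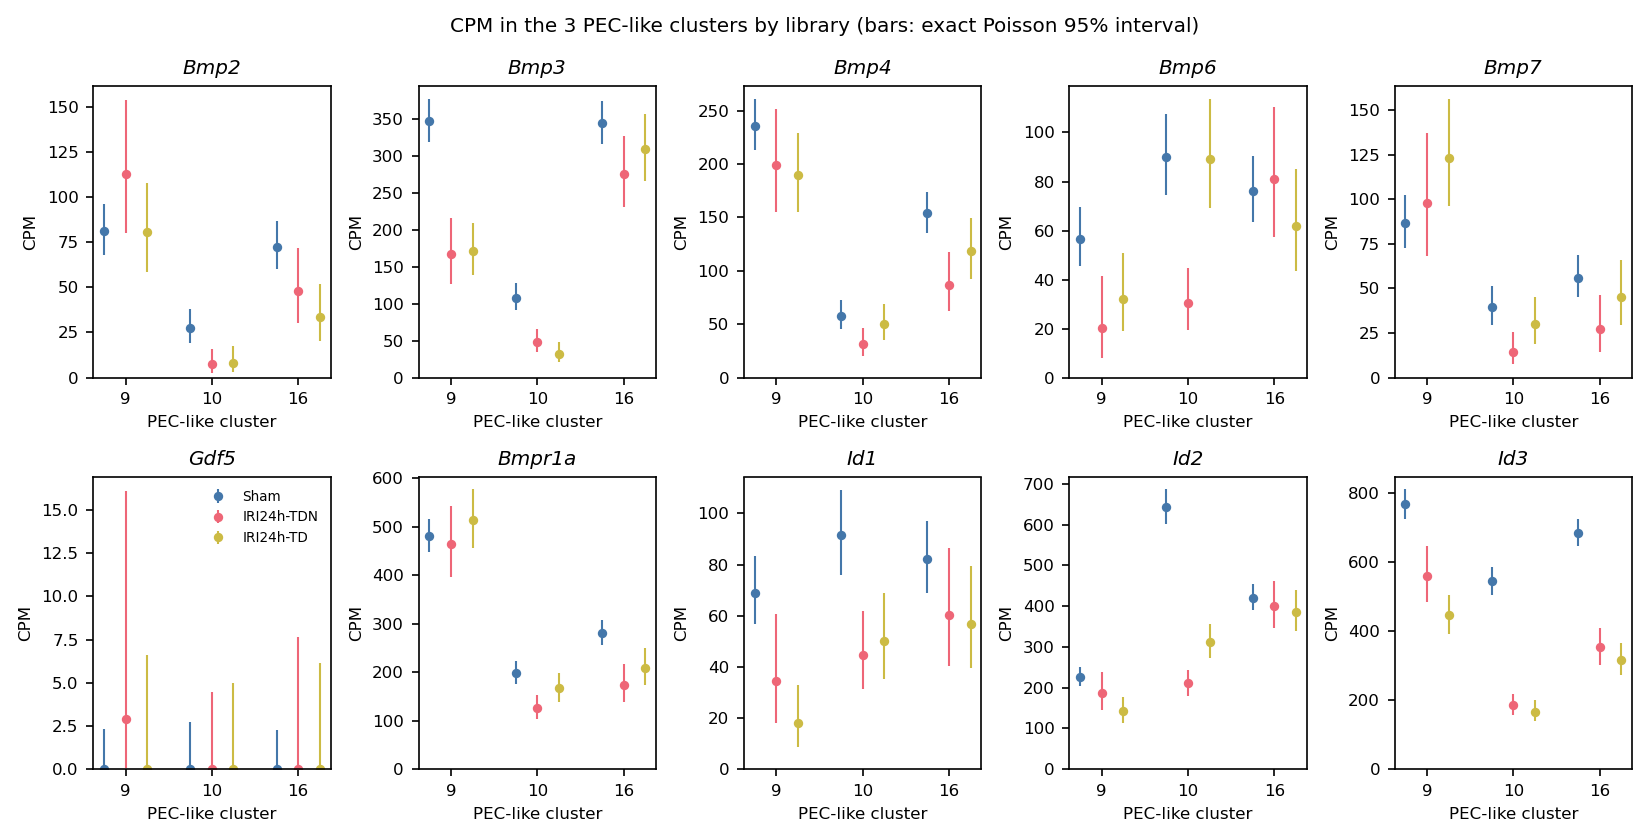
Level in CPM of the members in clusters 9, 10 and 16 of the PEC-like class, by library, with 95% Poisson bars that cover counting error only. Id3 is lower in IRI24h-TDN and IRI24h-TD than in Sham in all 3 clusters, while Bmp2 in cluster 9 is at 81.0 CPM in Sham and 113 CPM in IRI24h-TDN.

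The PEC-like cells were also divided by whether a Wt1 UMI remained after thinning, since the study set out to describe Wt1-expressing PECs. Of 1011 cells, 445 had one, 456 had none and 110 were too shallow. Bmp3 was at 272 CPM in cells with Wt1 and 187 CPM in cells without over all libraries together, Bmp4 at 155 and 111 CPM, Bmp7 at 72.5 and 43.5 CPM and Bmpr1a at 355 and 247 CPM. Id1 at 61.7 and 66.4 CPM and Id3 at 548 and 479 CPM were closer together, and Id2 was at 324 and 380.2 CPM. The podocyte marker sum was 3679 CPM with Wt1 and 1487 CPM without, so cells with a Wt1 UMI also had more podocyte RNA. The libraries differed in their share of cells with Wt1 (294 of 547 in Sham and 56 of 163 in IRI24h-TDN), so the ratios were also taken within each. Within Sham, IRI24h-TDN and IRI24h-TD the log2 ratio of cells with to cells without Wt1 was 0.51 (0.35 to 0.68), 0.34 (-0.08 to 0.74) and 0.21 (-0.12 to 0.54) for Bmp3, so that only the Sham interval lay off 0. It was 0.30, 0.99 and 0.30 for Bmp4, and 0.49, 1.09 and 0.86 for Bmp7. Bmpr1a was at 0.28, 1.07 and 0.56. The sign differed between libraries for Id3 (-0.06, 0.33 and 0.61), Id2 (-0.49, 0.07 and 0.05), Bmp2 (-0.33, 0.91 and 0.83), Bmp6 (-0.19, 0.72 and -0.35) and Id1 (-0.29, -0.01 and 0.05).

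PT-like cells had more Bmp6, Id1 and Id3 in the injured libraries. Bmp6 stood at 17.4 CPM in Sham, 77.3 CPM in IRI24h-TDN and 61.0 CPM in IRI24h-TD, a log2 ratio of IRI24h-TDN to Sham of 2.15 (1.83 to 2.47). Id3 was at 35.0, 184 and 272 CPM (log2 ratio 2.39, 2.17 to 2.61) and Id1 at 10.1, 24.7 and 72.4 CPM (1.28, 0.79 to 1.78). The Id1 ratio was under 2-fold with at least 500 genes per barcode (0.65) and with at most 20% mt- UMIs (0.72). Id2 was at 824, 615 and 619 CPM, a log2 ratio of -0.42, so Id2 went the other way from Id1 and Id3. Bmp3 had 27 UMIs in Sham and 0 in IRI24h-TDN, at least 3.35-fold lower with the same floor. Of 8 members counted, 3 were higher against a background of 18.7% and 1 was lower against 14.9%, so many genes of this class were past 2-fold. The finer clusters gave the same direction, as Bmp6 went from 9.84 to 93.2 CPM, from 17.2 to 27.3 CPM and from 30.1 to 69.9 CPM between Sham and IRI24h-TDN in clusters 6, 13 and 14. Id3 went from 8.08 to 99.3 CPM, from 23.1 to 394 CPM and from 103 to 244 CPM. Cluster 13 had 281 cells in Sham but 16 in IRI24h-TDN. Cluster 6 had Havcr1, the tubular injury gene, among its top genes and made up 317 of 838 PT-like cells in Sham and 88 of 152 in IRI24h-TDN.

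In the other 8 classes, 17 pairs of ligand and class were counted. By sign alone, 11 were lower and 6 higher in IRI24h-TDN than in Sham. The median log2 ratio over all genes lay between -0.06 and 0.26 in these classes. The share of all genes on each side of 0 was not taken, so this tally has no background. The ligands higher but under 2-fold were Bmp2 in smooth muscle-like cells (0.40) and Bmp4 in endothelial-like cells (0.62). Bmp6 was so in TAL-like cells (0.66) and in the class with PEC and PT genes (0.28). Bmp7 was at 152 CPM in Sham and 37.2 CPM in IRI24h-TDN in IC-B-like cells (log2 ratio -2.03, -2.42 to -1.63, 51 and 191 cells) and at 87.8 and 37.6 CPM in CNT-PC-like cells (-1.23, -1.58 to -0.88). It was at 30.2 and 8.02 CPM in the class with PEC and PT genes (-1.92), in contrast to its higher level in podocyte-like cells. Bmp3 was at 72.7 and 8.29 CPM in cells of the thick ascending limb (TAL-like; -3.13, -3.77 to -2.52) and at 10.3 and 4.01 CPM in the class with PEC and PT genes (-1.37). CNT-PC-like cells had 10.8 CPM of Bmp3 in Sham and 27.1 CPM in IRI24h-TDN (1.33), but 1 cell gave 12 of the 20 UMIs in Sham. Bmp4 was at 57.9 and 22.8 CPM in TAL-like cells (-1.34), where Id3 was at 62.9 and 18.1 CPM (-1.79). Bmp2 was at 18.1 and 85.6 CPM in endothelial-like cells (2.24, from 8 and 37 UMIs). In IRI24h-TDN 1 cell gave 29.7% of them. Of the endothelial-like cells, 104 of 176 in Sham were too shallow for thinning, against 1 of 96 in IRI24h-TDN. After thinning, 4.17% and 7.37% of the rest had a Bmp2 UMI, under 2-fold apart. In macrophage-monocyte-like cells Bmp2 was at 65.2 and 26.9 CPM (-1.28), where 1 Sham cell gave 29 of 69 UMIs. Id1 in macrophage-monocyte-like cells was at 6.62 and 3.26 CPM (-1.02) with an interval of -2.45 to 0.55.

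The shares of members past 2-fold in these classes stood beside these backgrounds. In TAL-like cells 3 of 8 were lower against 11.1% and 0 were higher against 10.4%, and in CNT-PC-like cells 1 of 6 was higher against 8.62% and 1 was lower against 8.44%. In IC-B-like cells 1 of 5 was lower against 7.17% and 0 were higher against 10.8%, and in IC-A-like cells 0 of 5 were past 2-fold against 8.48% higher and 7.64% lower. In the class with PEC and PT genes 2 of 8 were lower against 10.8% and 0 were higher against 6.71%. In endothelial-like cells 1 of 5 was higher against 7.71% and 0 were lower against 8.45%. In smooth muscle-like cells 0 of 6 were past 2-fold against 6.7% higher and 5.46% lower, and in macrophage-monocyte-like cells 2 of 5 were lower against 7.83% and 0 were higher against 17.0%. With 5 to 8 members counted in each class, a single gene moves such a share by more than most of these backgrounds.

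**Figure D4:**
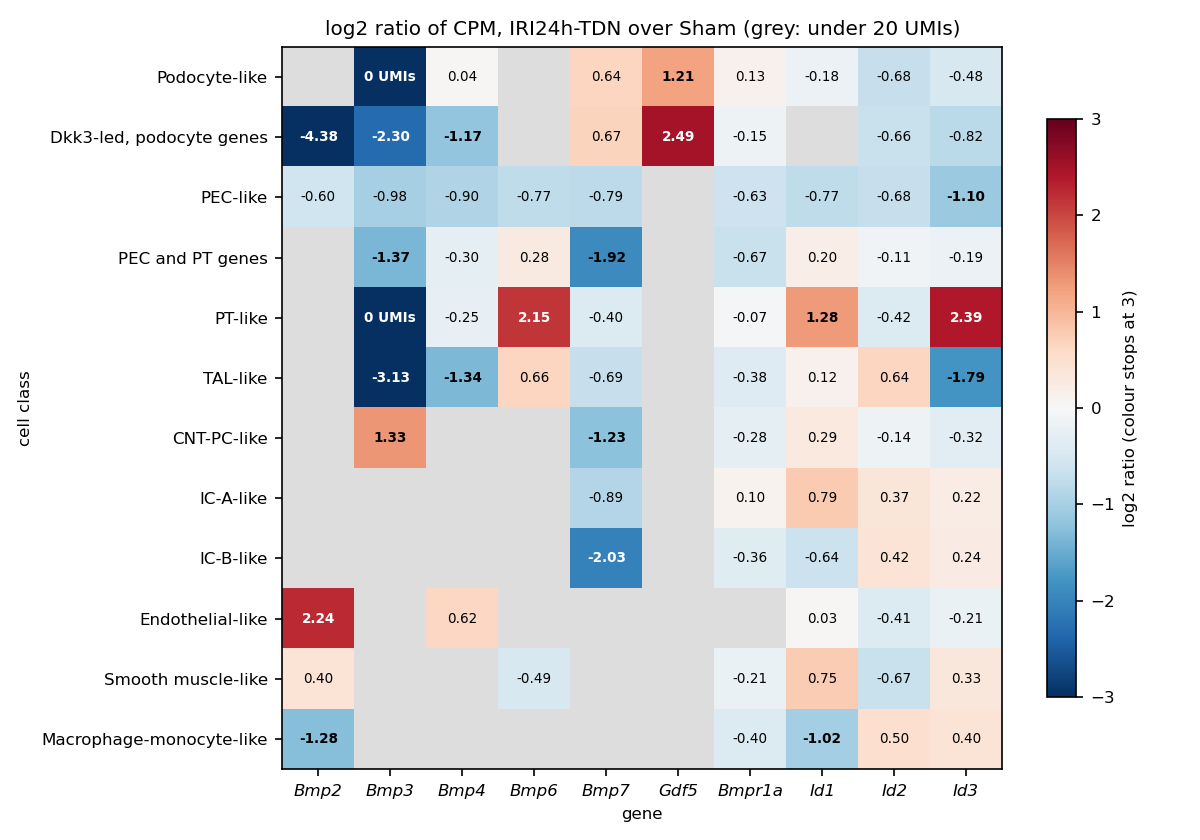
Log2 ratio of CPM, IRI24h-TDN over Sham, for the 10 genes (columns) in 12 classes (rows), with ratios of 2-fold or more in bold, grey cells for fewer than 20 UMIs in the libraries together and a label where 1 library had 0 UMIs. Gdf5 is positive in both podocyte classes (1.21 and 2.49), the PEC-like row is negative throughout, and Bmp6, Id1 and Id3 are positive in the PT-like row.

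The injured libraries IRI24h-TD and IRI24h-TDN differed by the sort and not by condition. IRI24h-TD held tdT+ cells alone, so within a class the cells sampled could differ from those of IRI24h-TDN, which also held tdT- cells. Differences between these libraries give a rough scale only for classes of tdT+ cells. They do not measure how far a Sham library would lie from another library for reasons other than injury. Of 38 pairs of member and class in 5 classes, 2 were 2-fold or more higher in IRI24h-TD and 1 was lower. In podocyte-like cells 0 of 7 members passed 2-fold, where 0.703% of all genes were higher and 3.26% lower. The log2 ratios there were 0.07 for Bmp7, -0.01 for Gdf5 and -0.01 for Bmpr1a, small beside those between IRI24h-TDN and Sham for Bmp7 and Gdf5 but of the order of that for Bmpr1a (0.13). The largest in podocyte-like cells was Id2 at -0.89 (-1.13 to -0.65). In PEC-like cells 0 of 9 passed 2-fold against 2.76% higher and 3.69% lower, yet Bmp7 differed by 0.80 (0.34 to 1.28), which was as large as its ratio between IRI24h-TDN and Sham (-0.79). Id3 differed by -0.08 (-0.25 to 0.10). Id3 in Dkk3-led cells was lower in IRI24h-TD (-1.13, 18.9 against 41.4 CPM), 1 of 8 members against 1.29% (0 were higher against 1.98%), and 1 cell gave 20 of the 70 UMIs in IRI24h-TDN. Bmp7 in the class with PEC and PT genes was higher (1.48, 23 against 8 UMIs), 1 of 7 against 3.3% (0 were lower against 1.8%). Id1 in PT-like cells was higher (1.55, 72.4 against 24.7 CPM), 1 of 7 against 4.87% (0 were lower against 5.22%), and 1 cell gave 16 of the 57 UMIs in IRI24h-TD.

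Of a list of 53 further BMP pathway genes, 52 were in the tables. In podocyte-like cells the highest of each role were Bmpr2, the type II receptor, at 380 CPM, Smad4 at 102 CPM, the BMP-binding membrane protein Crim1 at 1862 CPM and Tcf4, a partner of Id proteins, at 113 CPM. Among other ligands none exceeded 0.496 CPM there (Bmp8a). Crim1 was as high in Dkk3-led cells, at 1956 CPM, and led its role in 13 of 19 classes. Bmpr2 led the receptors in 16 classes. In PEC-like cells the leaders were Bmpr2 at 202 CPM, Smad4 at 161 CPM, Crim1 at 819 CPM, Id4 at 156 CPM and Gdf11 at 14.9 CPM. In endothelial-like cells, where Id1 was highest, the leaders of their roles were the co-receptor Eng at 906 CPM, the inhibitory Smad7 at 290 CPM and Tcf4 at 676 CPM. The antagonist Sostdc1 led its role in TAL-like cells at 472 CPM, Fstl1 in fibroblast-like cells at 1573 CPM and, among other ligands, Gdf10 in mesangial-like cells at 354 CPM. Acvrl1 led the receptors in 2 classes at 91.7 and 94.7 CPM, Tcf12 led the targets and Id partners in 5 classes at 46.7 to 87.4 CPM, and Smurf2 led the modulators in 1 class at 64.8 CPM.

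Between IRI24h-TDN and Sham, 34 of the 52 were counted in podocyte-like cells, of which 4 were 2-fold or more higher and 1 was lower, beside 5.54% and 9.5% of all genes. Bmpr1b, a second BMP type I receptor, went from 1.49 to 6.67 CPM (log2 ratio 2.16, 1.74 to 2.60). The others, Gdf11, Fstl3, Msx1 and, as the lower one, Smad9, stayed under 0.57 CPM in both libraries. In PEC-like cells 34 were counted, of which 11 were lower and 1 was higher, beside 11.8% and 7.09% of all genes, and their median log2 ratio was -0.46. The lower genes included targets and inhibitors of the pathway. Id4 went from 216 to 70.7 CPM (-1.61, -1.90 to -1.33), Atoh8 from 35.3 to 8.46 CPM (-2.06), Smad6 from 62.2 to 27.2 CPM (-1.19) and Crim1 from 1062 to 438 CPM (-1.28, -1.39 to -1.16). Gdf11, Acvr2b, Acvrl1, Rgma, Smad9, Chrdl1 and Hey1 were the other 7, from 5.89 to 20.1 CPM in Sham. These pathway ratios were not rerun under the alternatives that moved the ratios of members in this class. Crim1 was at 1862 CPM in podocyte-like cells. Podocyte markers in PEC-like cells stood at 5.53% of the podocyte-like level in Sham and 3.07% in IRI24h-TDN. The part of podocyte RNA and of the cluster shares in these ratios was not tested. The higher gene was the antagonist Fst at 5.67 and 65.9 CPM, but 1 cell gave 91 of its 109 UMIs in IRI24h-TDN, and it was at 1.58 CPM in IRI24h-TD. Sostdc1 in podocyte-like cells was at 1.11 CPM in IRI24h-TDN and 0.0482 CPM in IRI24h-TD.

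Across the 19 classes, the genes whose levels ran most like each member were found among 8383 genes with at least 50 CPM in some class, by Pearson's r of log2(CPM + 10). The classes share libraries and are few, so r is a description. For Bmp7 they were Arhgef18 (0.94), Chrnb1 (0.94) and Col4a4 (0.93), the last a collagen chain of the glomerular basement membrane. For Gdf5 they were Tmem54, Rdh1 and Myom2 (0.98 to 0.99), and for Bmpr1a Sdc2, Vasn and Pja1 (0.95 to 0.98). Bmp3 ran with Hs6st2, Cdh4 and Pcp4 (0.90 to 0.92), Bmp4 with Ncam1, itself a PEC marker here, St8sia2 and Gxylt2 (0.87 to 0.88), Bmp2 with Itga9, Angpt2 and Pla2r1 (0.91 to 0.95) and Bmp6 with Palm (0.90) and Cldn2, a claudin of the proximal tubule (0.88). Id1 ran with Efnb2, Afap1l2 and Tead2 (0.88 to 0.90), Id3 with Col4a1, Plcg1 and Col4a2 (0.89 to 0.93), and Id2 less closely with Cd9, Trib1 and Sorl1 (0.78 to 0.82).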

How the data were processed

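Each of the 3 libraries was used as a matrix of raw UMI counts, genes by barcodes, as deposited by the authors, who used the BD Rhapsody platform. Per the labels the build was mm10 and CASAVA 1.8, UMI-tools and Seurat were used, with no role stated. The aligner, the annotation and the use of strand are not given in the sources used here. Totals were 69980443 (Sham), 92355554 (IRI24h-TDN) and 93470709 (IRI24h-TD) UMIs.

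Barcodes with at least 200 genes and at most 50% mt- UMIs were kept. Counts were scaled to 10000 per cell and log transformed. The 2000 most variable genes, without members, pathway genes, genes named in the study, mt-, Rp and Hb genes, gave 30 principal components, corrected between libraries by Harmony (theta 2, written in numpy 2.4.6) and clustered with Leiden (leidenalg 0.10.2, 15 neighbours, resolution 1) in 2 rounds, podocytes first, giving 34 clusters. Clusters were named from 17 marker lists. Doublets were scored by simulation and not removed in the values reported. The naming thresholds and the names by leading gene (Dkk3, Chil3, H2-Ab1) were set after the clusters and the members' levels had been seen, and 1 condition was relaxed because an IC-A cluster and a mesangial cluster had stayed unnamed. The members and gene lists were chosen with earlier results of these data known.

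UMIs were summed per class and library. CPM had exact Poisson 95% intervals, shares of cells had exact Clopper-Pearson 95% intervals, and log2 ratios had exact conditional binomial intervals (scipy 1.17.1). With 1 library per condition no test was run. A 2-fold change needed at least 20 UMIs in both libraries together and at least 50 cells in each. The floor for 0 UMIs was 3 counts. All members were described. A pathway gene was named where it led its role in a class or passed 2-fold in podocyte-like or PEC-like cells, and the similar genes were the 3 with the highest r, of which 1 is not reported here. Alternatives were other cell filters, resolution 2, no correction, removal of the top 6% of doublet scores, other scalings (edgeR 4.0.16 TMM) and other UMI minimums. Clustering in 1 round, leaving out barcodes found in several libraries and leaving out cluster 9 were added after seeing the data. The 2-fold rule and the intervals of levels and ratios were tested on simulated Poisson counts. Clustering, the naming of classes and uneven counts between cells were not simulated.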

Additional observations from a re-analysis of the deposited data

Results flagged for a closer look

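The members Bmp3, Id3 and Bmp2 had log2 ratios of IRI24h-TDN to Sham past 2-fold in opposite directions in different classes, with intervals off 0. Bmp3 was at 1.33 in CNT-PC-like cells and -3.13 in TAL-like cells. Id3 was at 2.39 in PT-like cells and -1.79 in TAL-like cells. Bmp2 was at 2.24 in endothelial-like cells and -4.38 in Dkk3-led cells. Id1 was also past 2-fold both ways, at 1.28 in PT-like cells and -1.02 in macrophage-monocyte-like cells, but the interval of the latter spanned 0. With 1 library per condition the difference between classes was not tested. The pairs were picked out for their opposite signs, and several rest on few UMIs. Among them are Bmp2 in Dkk3-led cells with 1 UMI in IRI24h-TDN and Bmp2 in endothelial-like cells with 8 UMIs in Sham. A search for samples far from their group could not be made with 1 library per condition.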

How the results depend on the processing

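No paired analysis was possible because each condition had 1 library, and for the same reason no library could be left out. The highest class stayed the same for 7 to 10 of the 10 members under 12 alternatives. Between IRI24h-TDN and Sham 22 of 81 pairs were past 2-fold, beside the shares of all genes given above by class. Of these 22 pairs, 18 were past it under every alternative in which they were counted. Changing the UMI minimum cannot move the ratio of a counted pair, and leaving out cluster 9 changes only PEC-like cells. For such pairs these alternatives are no check. Bmp3 and Bmp7 in the class with PEC and PT genes were counted in only 6 and 7 of the 13 alternatives. Id3 in PEC-like cells, Id1 in PT-like cells and Id1 in macrophage-monocyte-like cells were lost under at least 2 alternatives, and Bmp4 in Dkk3-led cells without correction between libraries. The 22 pairs became 14 with at most 20% mt- UMIs and 46 with no UMI minimum. The 7 higher became 17 with no minimum, and the 15 lower became 8 with at most 20% mt- UMIs, 29 with no minimum, 9 with at least 50 UMIs and 25 with 1 round of clustering. Between IRI24h-TD and IRI24h-TDN the 3 pairs became 1 with at least 500 genes per barcode, 5 with at most 20% mt- UMIs, 6 without correction, 1 without the top doublet scores, 9 with no minimum and 18 with 1 round of clustering. The 2 higher became 1, 4, 5, 1, 6 and 11 in the same order, and 1 with at least 50 UMIs. The 1 lower became 0 with at least 500 genes or without the top doublet scores, 2 with equal weight per cell, 3 with no minimum and 7 with 1 round of clustering. Id3 in Dkk3-led cells between these libraries went from -1.13 to 0.070 with at least 500 genes. In PEC-like cells the ratio of IRI24h-TDN to Sham kept its sign for 7 of 9 members in all 13 alternatives, although Bmp2 came to -0.01 with at most 20% mt- UMIs and -2.06 without correction, and Bmp6 reached 0.26 with 1 round of clustering and Id2 0.44 without correction. TMM scaling moved the log2 ratios in macrophage-monocyte-like cells by -0.25 and in PT-like cells by -0.18. The causes were not tested. Some alternatives left classes out, and genes with few UMIs in small classes were limited by depth.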
